A study of Homo sapiens with 17 samples.

Results

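Clustered FOXA1 sites without CREB1 are stretches of DNA bound by the transcription factor FOXA1 in LNCaP-abl cells that lie close to another such stretch and share no base pair with a listed peak of CREB1. LNCaP is an androgen-dependent prostate cancer line established from human cells, and its subline LNCaP-abl, abl for short, is labelled androgen independent. Members were taken from the authors' FOXA1 peak list of abl, a ChIP-seq list, which holds 79242 peaks. A peak was kept if it shared no base with any of the 27629 CREB1 peaks of abl or the 21991 CREB1 peaks of LNCaP, and if its midpoint lay within 5000 bp of the midpoint of another peak kept in the same way. The rule found 14394 members among 64527 FOXA1 sites without CREB1. They made up 22.3% of those sites (exact Clopper-Pearson 95% interval 22.0 to 22.6) and 18.2% of the whole list. The other 50133 sites without CREB1 are called isolated below, and 14715 FOXA1 peaks shared bases with CREB1.

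The FOXA1 and CREB1 samples of abl came from cells at passages 62 to 64, cultured in RPMI medium with 10% charcoal-stripped serum, a serum depleted of steroid hormones. The CREB1 sample of LNCaP came from passages 32 to 34, grown with 10% untreated serum. No siRNA is named for these 3 samples. A further 8 ChIP-seq samples of abl under siRNA, with FoxA1 or CREB1 antibody and 2 replicates in each group, were not analysed here. Each of the 3 samples used had 1 peak list, so differences between kinds of site have no replicate check, and intervals on shares of sites cover counting error only. The number of reads behind each list was not given in the sources used here.

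FOXA1 is a forkhead factor of endoderm-derived epithelia such as prostate, liver and lung. It is called a pioneer factor because it can bind its site on nucleosomal DNA and help open the chromatin for other regulators. In prostate cells it is known to bind enhancers together with factors such as HOXB13 and GATA2. CREB1 is a leucine zipper factor that responds to cyclic AMP and is known for binding close to gene starts, whereas FOXA1 is known for binding mostly at distal enhancers. Enhancers often hold several binding sites in a short stretch, and a group of neighbouring peaks can therefore belong to 1 regulatory region or to several. No gene was assigned to a site here.

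Distances to the nearest other site, the values that chose the members, were unevenly spread below and above the limit. Their median was 2222.5 bp in members and 15638.5 bp in isolated sites, a difference that the rule fixes. In bins of 500 bp, the fullest lay between 1000 and 1500 bp with 2389 sites, and 2237 sites fell between 500 and 1000 bp. Only 96 sites had a neighbour within 500 bp, a distance below the median peak width. Counts then declined to 1209 sites between 4000 and 4500 bp and 1218 between 4500 and 5000 bp. Just outside the rule they were higher again, with 1734 sites between 5000 and 5500 bp and 1809 between 5500 and 6000 bp. The distance that separates clustered from isolated sites therefore lies at the edge of a dip in the spacing of the list.

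**Figure D1:**
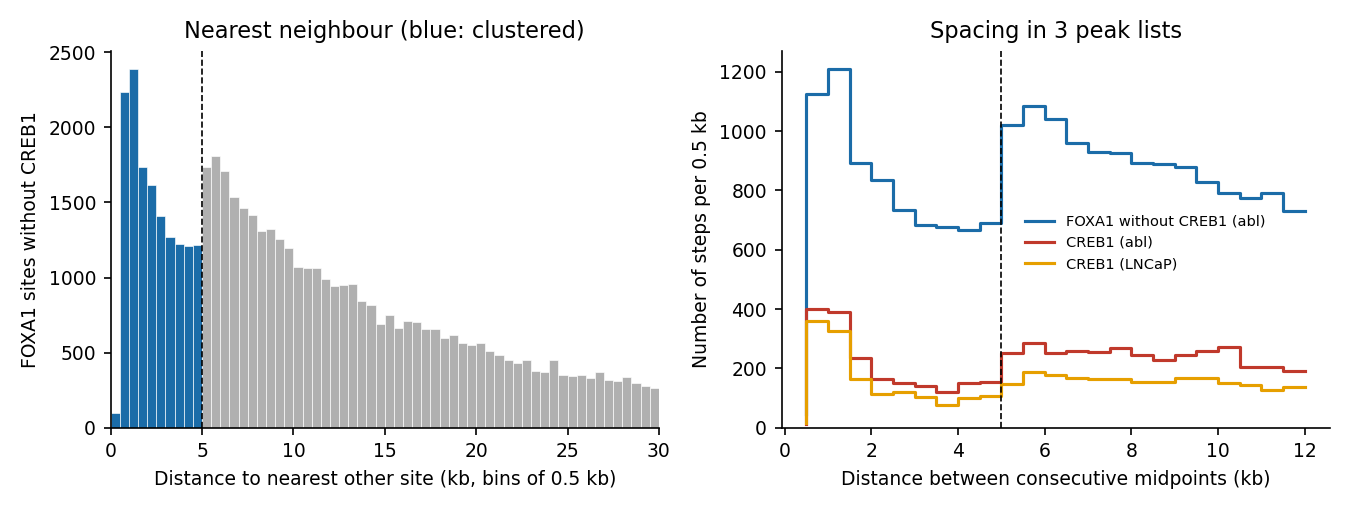
Left, number of FOXA1 sites without CREB1 by distance to the nearest other such site, in bins of 0.5 kb (blue, clustered; grey, isolated; dashed line, 5 kb). Right, number of steps between consecutive midpoints per 0.5 kb in the FOXA1 sites without CREB1 and in both CREB1 lists; the FOXA1 curve goes from 691 steps in the last bin below 5 kb to 1021 in the first bin above it.

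Sites on either side of that limit had similar scores. The score is the authors' value per peak, at least 80 in this list, and is used here only to describe and rank peaks within the list. The 537 members whose neighbour lay 4800 to 5000 bp away had a median score of 196 and a median width of 647 bp. The 613 isolated sites with a neighbour over 5000 and up to 5200 bp away had a median score of 197 and a median width of 618 bp. The lowest scores stood at the short end of the range. Members with a neighbour within 1000 bp had a median score of 155, and the 4 bins of 1000 bp from there to 5000 bp had medians of 181, 177, 172 and 182. Beyond the limit, the 5 bins from 5000 to 10000 bp had medians of 199, 207, 209, 202 and 208. Sites with no neighbour within 15 kb, 25994 in number, returned to a median of 190.1.

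The members formed 6829 clusters when sites were chained across steps of at most 5000 bp. Pairs dominated, with 6173 clusters or 90.4% of all, and held 85.8% of the members. A further 589 clusters had 3 sites, 56 had 4, 9 had 5 and 2 had 6. The median cluster spanned 3147 bp from the first to the last base, and the longest 16241 bp. Pairs spanned a median of 2942 bp, clusters of 3 sites 6113 bp and clusters of 4 sites 8718.5 bp. Called peaks filled 46.7% of the span of a median pair, 35.3% of a median cluster of 3 and 31.7% of a median cluster of 4. From 2 to 4 sites, larger clusters were thus longer and more sparsely filled. Clusters of 5 and 6 sites were filled over a median of 29.8% and 31.8%. The chaining favours both directions, since each further site also adds a gap, and whether either goes beyond that was not tested. In 418 clusters the outer midpoints were over 5000 bp apart.

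Some neighbours almost touched. Of 7565 steps between consecutive members of a cluster, 483 (6.38%) had less than 100 bp between the edges of both peaks, and the closest pair was 1 bp apart. Edges were under 500 bp apart in 1741 steps (23.0%), which involved 3451 members. The median gap between edges was 1602 bp. Peaks that nearly touch and peaks several kilobases apart are therefore both among the members, and whether a close pair is 1 broad binding region split by the peak caller was not tested.

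The 2 clusters of 6 sites lay on chromosomes 4 and 1 (hg19). The first, at chr4:48121638-48134785, spanned 13148 bp and had its highest score of 437 at the fourth site from the left, a peak of 1279 bp, while both sites next to the leftmost one scored 106. The second, at chr1:235565577-235580846, spanned 15270 bp. Its scores were more even, between 93.5 and 238, and its steps ran from 1925.5 to 3468 bp. The best site of the first cluster lay above the upper quartile of all members, 310.3, and that of the second below it.

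Among the 9 clusters of 5 sites, the highest single score stood at chr2:123914372-123928903. This cluster was uneven: its outermost sites scored 627 and 1132, and the 3 between them 99.7, 146 and 82.8. The cluster at chr15:48763195-48777820 had 3 neighbours at 563, 529.7 and 444, followed by sites of 114 and 229.9. Sites above the members' upper quartile of 310.3 could therefore stand side by side or at opposite ends of a cluster.

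A pair of 5-site clusters stood near each other on chromosome 11, at chr11:4772106-4785699 and chr11:4847420-4863660, with 61.7 kb between them. From the start of the first to the end of the second, 91.6 kb held 15 FOXA1 peaks, of which 10 were members and 0 shared bases with CREB1. The first of these clusters had 3 peaks wider than 1.3 kb, with a top score of 643. The other was the longest of all clusters and was covered by peaks over only 18.8% of its span.

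The other clusters of 5 sites lay at chr2:5258497-5271288, chr5:115860474-115872420, chr6:97844087-97855833, chr2:99317984-99330562 and on chromosome 8. Their top scores were 496, 362, 311, 246 and 577 in that order. The nearest CREB1 peak of either line was 6.29 kb from the first of them and 10.9 kb from the one on chromosome 8. Across all 11 clusters of 5 or 6 sites the nearest CREB1 peak was between 6.29 and 195 kb away, the farthest being from the chromosome 2 cluster with the highest single score. None of these clusters bordered directly on a CREB1 peak.

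**Figure D2:**
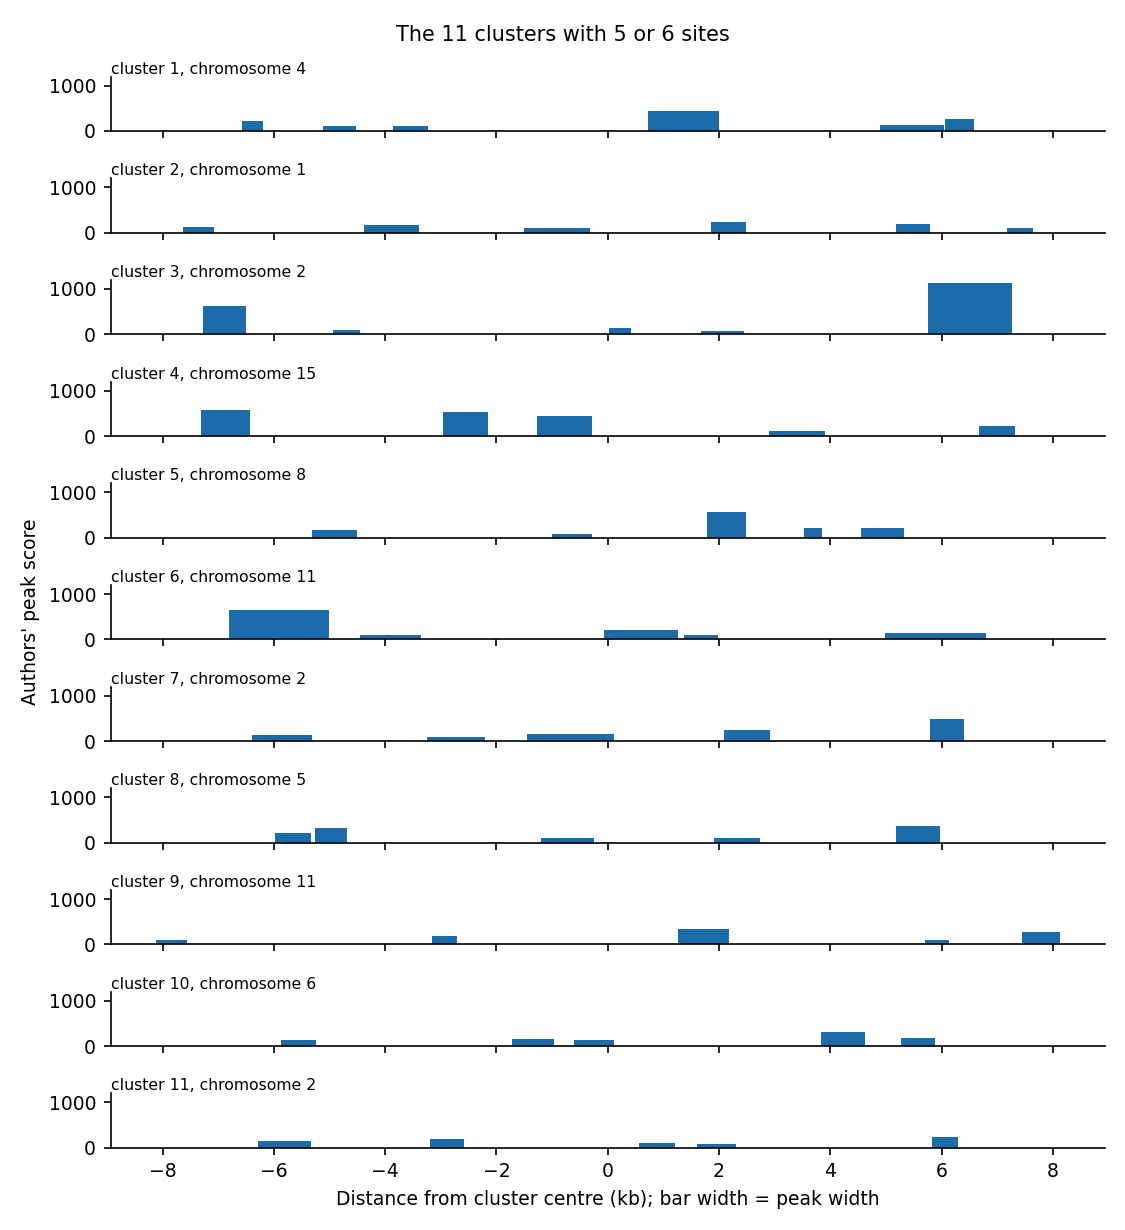
Position of each site in the 11 clusters with 5 or 6 sites, in kb from the centre of the cluster; bar width is the width of the peak and bar height the authors' score, on 1 common scale that starts at 0. The cluster on the third row from the top has its highest scores, 627 and 1132, at both ends, whereas the second has 6 sites between 93.5 and 238.

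The 6 members with the highest scores had neighbours across a wide range of scores. The top member, at chr6:126039059-126039791, scored 2058 and had a neighbour of 115 at 2056 bp. The next, at chr5:23494366-23495311, scored 1937 beside a neighbour of 250.04 at 1010.5 bp. The third, at chr10:5928512-5929482, scored 1803 and had a partner of 854 at 1088 bp. The following pair, at chr3:87976555-87977229 and chr17:21121892-21122647, scored 1752 and 1693 beside neighbours of 213 and 176. The sixth, at chr3:144107593-144108801 in a cluster of 3, scored 1646 and had a partner of 1066 at 4960.5 bp. Of these 6 partners, 1 scored below the median of all members, 174. Having been chosen for their scores, these sites had to stand above most of their neighbours.

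Members were rare among the strongest FOXA1 peaks of the list. The top member was the 202nd peak of the whole list by score and the 45th among sites without CREB1. Of the 1000 highest peaks, 14 were members, 271 were isolated and 715 shared bases with CREB1. Of the 5000 highest, 264 (5.28%) were members, and of the 20000 highest, 2312 (11.6%), against 18.2% of the whole list. Counted only among sites without CREB1, members were 4.91% of those in the first 1000 and 11.2% of those in the first 5000, against 22.3% overall. The share of members was thus higher in each larger set, and each set includes the smaller ones. By separate quartiles of score among sites without CREB1, it was 24.3% in the lowest and 24.4% in the second.

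Members scored lower than isolated sites and were wider, in values that were not tested. The median score was 174 (quartiles 113 and 310.3) for members and 196 (119 and 379.7) for isolated sites. The difference of medians, -22.5, depended on the limits: it was -4.54 with a distance of 10000 bp and -41.8 among peaks at or above the list's median score. Scores of at least 1000 were reached by 203 members (1.41%) and by 1761 isolated sites (3.51%). The median width was 646 bp (quartiles 544 and 757) for members and 598 bp (494 and 709) for isolated sites. FOXA1 peaks that shared bases with CREB1 had the highest median score, 354, and the highest median width, 702 bp. Members thus stood below both other kinds of site in score and between them in width.

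**Figure D3:**
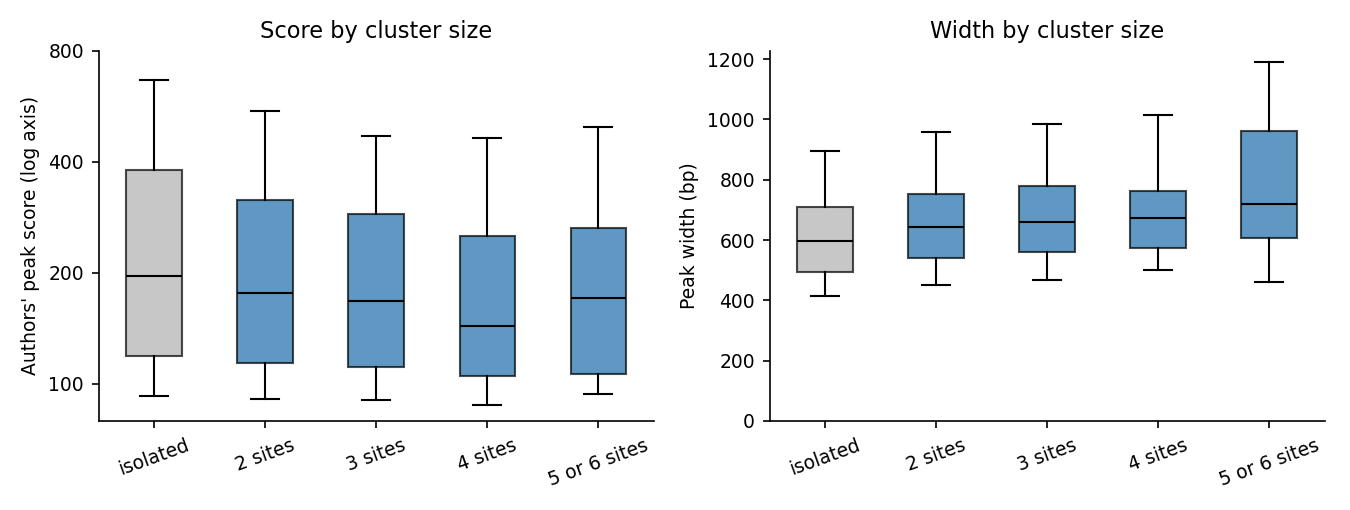
Authors' peak score (left, log axis) and peak width in bp (right) of isolated FOXA1 sites without CREB1 (grey) and of members by the number of sites in their cluster (blue); boxes give the quartiles and median, whiskers the 10th and 90th percentile. The median score is 196 for isolated sites and 176, 168 and 143 for clusters of 2, 3 and 4 sites. The median width is 598 bp for isolated sites and 644, 659 and 672.5 bp for these clusters. Clusters of 5 and 6 sites, with 45 and 12 members, break both series. Their median scores are 174 and 156 and their median widths 767 and 614 bp.

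The difference in width was present at every level of score. Sites without CREB1 were split into quartiles of score. In the lowest quartile, members had a median width of 563 bp and isolated sites 481 bp, and in the highest 763 and 732 bp. The share of clustered sites was 24.3% and 24.4% in the first and second quartiles, 22.7% in the third and 17.8% (95% interval 17.2 to 18.4) in the fourth. Another site of the same quartile lay within 5000 bp of 3.16% of the highest quartile and of 7.17% of the lowest. These shares describe 1 list and were not tested.

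The scores of neighbouring members were almost unrelated. The best site of a cluster had a median score of 293 and the weakest 119, so that the best exceeded the median of isolated sites and the weakest fell below it. A best and a worst of several draws differ in this way by construction. Over the 7565 steps between consecutive members the scores of both neighbours had a Spearman correlation of -0.03. Over 17112 steps of at most 20000 bp between consecutive isolated sites it was 0.00. All these points come from the same library. The score of a member therefore told little about that of its neighbour.

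Neighbours at most 1000 bp apart had lower scores than those farther apart. The lower of both scores had a median of 112 in the closest bin and between 122.5 and 123 in the 4 bins from 1000 to 5000 bp. The higher had a median of 241 in the closest bin and between 269 and 298 in the others. In the 589 clusters of 3, the middle site had the highest score in 202 (34.3%, exact 95% interval 30.5 to 38.3) and the lowest in 192 (32.6%, 28.8 to 36.5). The median score was 169 for middle and 167 for outer sites. The middle site was thus neither the peak nor the trough of these clusters as a rule.

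Clusters were spread over the genome. In windows of 1 Mb, 2245 of the 2835 windows with a FOXA1 site without CREB1 (79.2%) held at least 1 member, with a median of 6 in those windows. The 283 windows with most members held 29.3% of them, whereas the 283 windows with most isolated sites held 19.0% of those. The median gap between consecutive clusters was 197 kb (quartiles 71.1 and 483 kb), and 528 gaps (7.76%) were at most 20 kb. The rule picks sites with near neighbours, and members were fewer than isolated sites, 14394 against 50133. Both can raise the share held by the fullest windows. These shares therefore cannot tell whether members were more unevenly placed than isolated sites.

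The share of clustered sites was higher where sites were denser. It was 11.4% (95% interval 10.3 to 12.5) in windows with 1 to 10 sites without CREB1, 21.1% in windows with 21 to 30, and 33.1% (30.99 to 35.2) in the 36 windows with 51 to 69. The rule favours this direction, since more sites per window leave less room between them. Whether any of the rise goes beyond that was not tested. The windows with most members were chr10:63000001-64000000 and chr5:58000001-59000000, with 27 members each out of 56 and 55 sites without CREB1, in 13 clusters each. Next came chr4:159000001-160000000 with 25 of 52. By contrast, chr12:81000001-82000000 held more sites, 69, but 23 members, or 33.3%. The window around the 6-site cluster of chromosome 1, chr1:235000001-236000000, held 23 members of 47 sites and also 18 FOXA1 peaks that shared bases with CREB1.

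**Figure D4:**
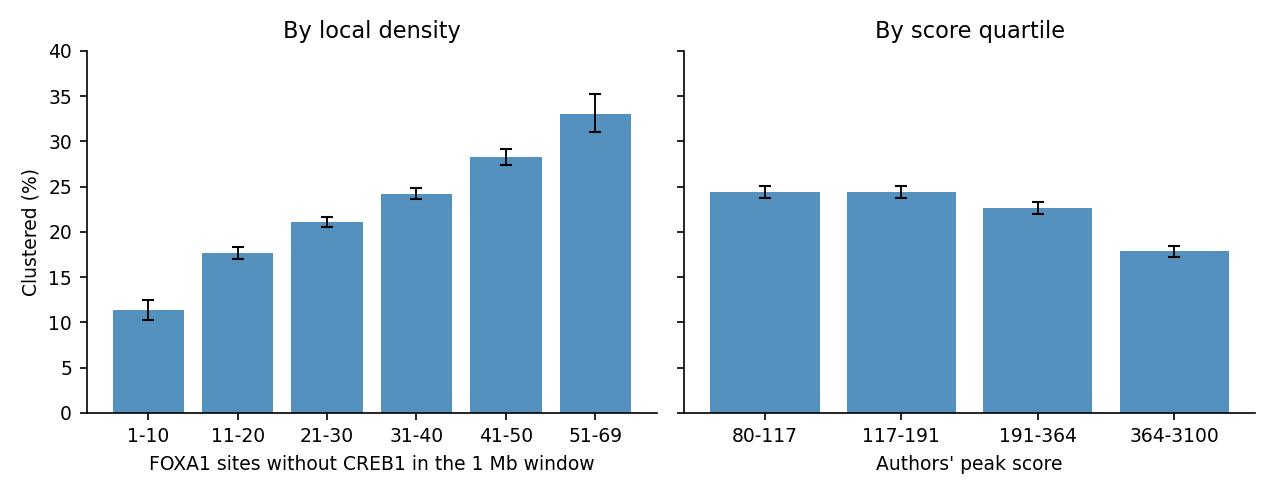
Share of FOXA1 sites without CREB1 that are clustered, by the number of such sites in the 1 Mb window (left) and by quartile of the authors' score (right); bars start at 0 and whiskers are exact 95% intervals that cover counting error only. The share goes from 11.4% to 33.1% with density and from 24.3% to 17.8% with score.

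Chromosomes also differed in their clustered share. Leaving out chromosome Y, which had 42 sites without CREB1, the clustered share ran from 15.7% on chromosome 19 (79 of 503 sites, exact 95% interval 12.6 to 19.2) to 25.8% on chromosome 15 (513 of 1989, 23.9 to 27.8). Members per Mb between the first and last FOXA1 peak ranged from 1.34 on chromosome 19 to 6.29 on chromosome 15. Chromosomes 22, 20, 16 and 17 followed chromosome 19 at the low end, with 18.1%, 18.7%, 19.4% and 19.8%, and their intervals overlapped. The median score was lower in members than in isolated sites on 22 of these 23 chromosomes, the exception being chromosome 21 with 196.5 against 196.0. The lower score was thus not the property of a few chromosomes.

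Chromosomes where more FOXA1 peaks shared bases with CREB1 had a lower clustered share among the rest. The share of FOXA1 peaks with CREB1 ranged from 5.82% on chromosome X to 44.6% on chromosome 19. Over 23 chromosomes its Pearson correlation with the clustered share was -0.81 and its Spearman correlation -0.75. Without chromosomes 19 and X, the farthest from the median, the values were -0.70 and -0.69. The points share 1 library, and the rule takes peaks with CREB1 out before neighbours are looked for, so both measures are tied. With the density of sites without CREB1, the Pearson and Spearman values were 0.55 and 0.28, and 0.19 and 0.07 without chromosomes 19 and 16.

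**Figure D5:**
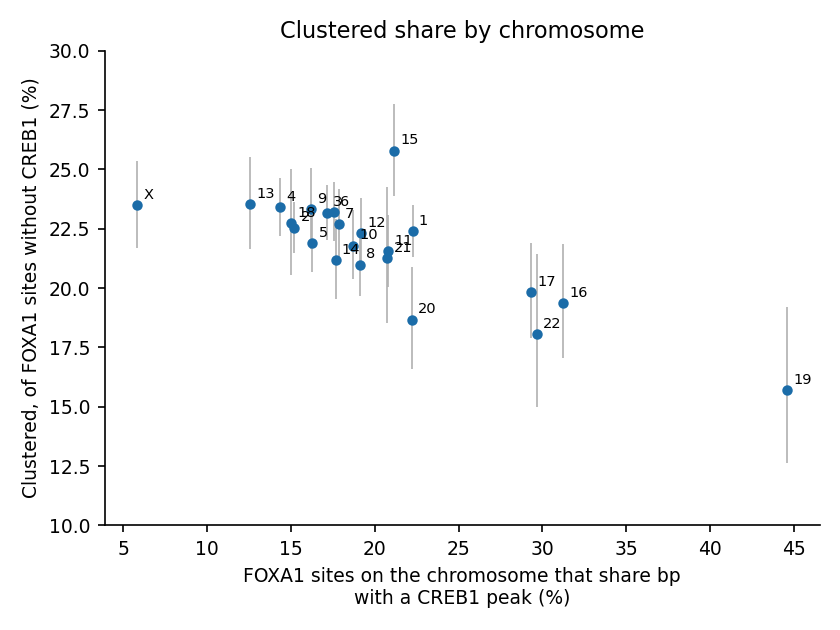
Clustered share of FOXA1 sites without CREB1 (y axis, %, from 10 to 30, with exact 95% intervals) against the share of all FOXA1 peaks on the chromosome that share bases with a CREB1 peak (x axis, %), 1 labelled point for each of 23 chromosomes. Chromosome 19 stands alone at 44.6% and 15.7%, and chromosome 15 has the highest clustered share at 25.8%.

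Members lay somewhat nearer to CREB1 peaks at the median than isolated sites, while a smaller share of them had one close by; neither difference was tested. The median distance from the edge of a member to the nearest CREB1 peak of either line was 29.6 kb, against 32.0 kb for isolated sites. It was 33.0 kb to abl CREB1 and 46.7 kb to the shorter LNCaP list, against 36.5 and 50.7 kb for isolated sites. Within 5000 bp, 11.03% of members (95% interval 10.5 to 11.5) and 13.0% of isolated sites (12.7 to 13.3) had a CREB1 peak. Within 500 bp the shares were 1.72% (248 members) and 2.20% (1102 sites). The order was thus reversed between the median and the short distances.

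A FOXA1 peak that did share bases with CREB1 stood within 5000 bp of 520 members (3.61%, 95% interval 3.31 to 3.93) and of 2509 isolated sites (5.00%, 4.82 to 5.20). An isolated site could thus have a FOXA1 neighbour, but 1 with CREB1. When such peaks were put back, 344 of 6826 clusters that held members (5.04%) gained at least 1 of them, and the largest cluster then had 7 sites. The other clusters consisted of sites without CREB1 alone. The rule admits only such sites as members, and 81.4% of all FOXA1 peaks lacked CREB1. A majority of this kind was thus favoured beforehand.

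Having any FOXA1 neighbour within 5000 bp was about as frequent with CREB1 as without. It was found for 26.2% of FOXA1 sites without CREB1 (95% interval 25.9 to 26.5) and 24.99% of those with CREB1 in either line (24.3 to 25.7). Among the latter it was 27.8% (26.6 to 28.9) where only abl had the CREB1 peak, 23.5% where both lines had it and 22.5% where only LNCaP had it. Close spacing was thus seen in all 4 classes. The median score of members was 159 within 1 kb of a CREB1 peak, 176 from 1 to 5 kb, and between 174 and 174.5 in the 3 bins beyond. Isolated sites were likewise lowest within 1 kb, at 177, with medians of 196 to 200.1 farther away.

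RNA from the same lines shows FOXA1 and its partner factors when FOXA1 is lowered. LNCaP at passages 32 to 34 and abl at passages 62 to 64 received a control siRNA (siControl), siCREB1 or siFOXA1 at 40 nM for 3 days in 5% charcoal-stripped serum, with 2 libraries in each of 6 groups and 9092597 to 37314039 reads in genes per library. The labels do not say that the libraries came from separate cultures, so p-values measure the spread between these libraries. These RNA values were not linked to single sites, and the peak list is not from siRNA-treated cells. FOXA1 stood at 556 and 504 CPM (counts scaled to library size) in the abl siControl libraries and at 196 and 229 under siFOXA1, without overlap. In LNCaP it stood at 799 and 695, then at 215 and 211. The log2 change was -1.32 ± 0.08 in abl (SE, edgeR Benjamini-Hochberg adjusted p = 2.04e-08) and -1.81 ± 0.09 in LNCaP (adjusted p = 2.15e-09). FOXA1 RNA was thus lowered but far from absent.

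The known luminal and FOXA1-partner genes were changed in large part, with more lower than higher. Leaving out FOXA1 itself, the target of the siRNA, 31 genes of a list of 34 were measured. Of these, 17 fell and 7 rose in abl under siFOXA1, and 15 fell and 9 rose in LNCaP. That is 77.4% called in each line, where 56.5% of all 15550 tested genes were called in abl (29.9% higher and 26.5% lower) and 49.8% in LNCaP (24.4% and 25.5%), by edgeR's quasi-likelihood test. The siFOXA1 effect was higher in abl than in LNCaP for 5 of these genes and lower for 9, together 45.2% of those measured, against 32.6% of all tested genes. The list's median log2 change was -0.46 in abl and -0.13 in LNCaP, and that of all tested genes 0.03 and -0.01. Under siCREB1, 77.4% of the same list was called in abl (10 higher and 14 lower) and 58.1% in LNCaP (4 and 14). A share of this size in abl was thus not particular to siFOXA1. The matching share of all tested genes under siCREB1 is not given here. In bulk RNA, fewer cells of a type and less RNA per cell cannot be told apart. The summed level of 6 luminal markers did not fall with the list: it was 1352 to 1625 CPM under siControl and 1633 to 1681 CPM under siFOXA1 in abl, and 1979 to 2267 and 2429.9 to 2495 CPM in LNCaP. In the same order, 3 basal markers summed to between 0 and 0.0278 CPM and between 0.138 and 0.216 CPM in abl, and to between 0.0361 and 0.192 CPM and between 0.803 and 1.10 CPM in LNCaP. Summed markers of fibroblasts were at 8.45 to 10.8 and 13.6 to 16.7 CPM in abl. They were at 57.1 to 64.6 and 82.1 to 97.1 CPM in LNCaP, with COL1A2 at 0 counts in all 4 groups. Most of this sum was COL1A1, at 8.36 and 10.7, then 13.6 and 16.7 CPM, in abl. In LNCaP COL1A1 stood at 53.4 and 61.6, then 96.2 and 81.2 CPM. LUM moved the other way there, from 3.58 and 2.63 to 0.843 and 0.918 CPM. DCN had at most 5 counts in any library of these groups. Neuroendocrine markers were at 52.0 to 55.8 and 86.0 to 99.1 CPM in abl, and at 106 to 106.4 and 78.4 to 79.5 CPM in LNCaP. Nearly all of this sum was ENO2, at 54.8 and 50.1 CPM, then 85.1 and 98.2 CPM, in abl. SYP moved the other way there, from 1.00 and 1.89 to 0.781 and 0.734 CPM. In LNCaP ENO2 fell from 104.7 and 105.4 to 77.6 and 76.7 CPM. SYP went from 1.30 and 1.03 to 1.85 and 1.68 CPM there. CHGA had at most 3 counts in any library. Summed markers of blood and endothelium were at 17.3 to 17.5 and 22.5 to 29.0 CPM in abl. They were at 37.9 to 39.8 and 15.8 to 16.1 CPM in LNCaP. Single markers moved in opposite directions. CD68 rose in abl, from 14.2 and 15.6 to 27.6 and 21.2 CPM, and PTPRC fell from 1.78 and 0.892 to 0.689 and 0.259 CPM. VWF fell in LNCaP, from 30.7 and 27.7 to 2.61 and 2.37 CPM. CD68 rose there from 8.09 and 9.29 to 12.9 and 13.0 CPM. PECAM1 was at most 0.897 CPM in these groups. The part of these markers in the list's changes was not tested. KRT14 and TP63, which mark basal cells, were at 0 counts in the abl siControl libraries. KLK3, the androgen-driven gene of prostate-specific antigen and 1 of the luminal markers, stood at only 0.36 and 0.11 CPM in abl siControl, against 70.6 and 73.9 CPM in LNCaP siControl.

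Partner factors moved in different directions. GATA2, a zinc finger factor, went from 259 and 236 CPM to 500.4 and 544 CPM in abl, a rise of 1.07 ± 0.07 on the log2 scale (edgeR adjusted p = 1.37e-08). GRHL2, an epithelial factor, rose by 0.40 ± 0.07 in abl and by 0.49 ± 0.07 in LNCaP. The forkhead repressor FOXP1 fell from 76.5 and 78.0 CPM to 22.6 and 17.0 CPM in abl, a log2 change of -1.97 ± 0.10 (edgeR adjusted p = 3.31e-09). SPDEF, an ETS factor of luminal cells, had log2 changes of -2.25 ± 0.13 in abl and -2.29 ± 0.13 in LNCaP, and the co-repressor TLE3 of -1.08 ± 0.10 and -1.96 ± 0.10. The groups of these genes did not overlap in either line.

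The homeobox gene HOXB13 was not called in either line. HOXB13 in abl stood at 469 and 391 CPM, then 477 and 501 CPM (0.18 ± 0.08, edgeR adjusted p = 0.0826). In LNCaP its log2 change was -0.05 ± 0.08 (edgeR adjusted p = 0.649). In abl it passed the threshold without the first siControl library (0.33, adjusted p = 0.00852) and with no filter on low counts (0.19, adjusted p = 0.049).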

How the data were processed

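The authors deposited peak lists that give a position and a score for each peak. Alignment with Bowtie 1.0.0 and calling with MACS 1.4.2, on hg19, are named per the submitters' processing notes. The input control, any pooling of libraries and the scale of the score are not given in the sources used here, so depth limits on peak calling are unknown. Read counts per gene were deposited by the authors, made per the submitters' processing notes with TopHat2 2.0.8, Bowtie2 2.1.0 and HTSeq 0.5.3p9. Peak starts are given 1-based. Overlap meant at least 1 bp, and distances were taken between midpoints, with pandas 2.3.3. An hg19 genome and annotation were not used here, so sites carry no gene and no sequence. All 12 RNA libraries entered 1 fit with edgeR 4.0.16 (TMM, filterByExpr, quasi-likelihood F-test, 6 residual degrees of freedom, adjusted p below 0.05); 15550 of 23230 genes were tested. SIC columns were read as siControl. Reads in no gene (54.8% to 58.3% of a library) or in several (0.774% to 0.924%) were left out. Alternatives were another distance, overlap or score minimum, and for RNA other scaling, DESeq2 1.42.0, no filter, a replicate block and leaving out libraries; those for list counts were chosen after seeing the data. Overlap and clustering were tested on simulated data, as was the RNA fit. The members, lists and tests were chosen with earlier results of these data known. The planned rule for named genes needed gene positions. Genes named are FOXA1, members of the luminal and partner list and cell type markers, chosen after their values were seen, and 1 gene is not reported here.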

Additional observations from a re-analysis of the deposited data

Results flagged for a closer look

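FOXA1, HOXB13, GATA2, GRHL2, FOXP1, SPDEF, NFIB and TLE3 were checked for a siFOXA1 effect that differed between abl and LNCaP. It differed for 5 of them in edgeR's interaction test, where 32.6% of all tested genes passed that test. HOXB13, GRHL2 and SPDEF did not pass (edgeR adjusted p = 0.159, 0.526 and 0.91). The cell type markers named above were not part of this count. On the luminal and partner list without FOXA1, 45.2% passed. The difference, abl minus LNCaP on the log2 scale, was 0.49 for FOXA1 itself (edgeR adjusted p = 0.00584), so the target kept more of its RNA in abl. It was 0.43 for GATA2, which rose in both lines, and 0.88 for TLE3, which fell in both. It was -0.71 for FOXP1, which fell in both lines. NFIB, a nuclear factor I protein that binds with FOXA1, had a difference of -1.07 (edgeR adjusted p = 5.68e-06): it fell by 0.80 in abl and rose by 0.27 in LNCaP.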

How the results depend on the processing

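The number of members depended on the distance: 8070 (12.5% of sites without CREB1) at 2500 bp and 29151 (45.2%) at 10000 bp. With FOXA1 peaks at or above the median score only, it was 2470 (8.30%). Counting as shared only FOXA1 peaks covered over at least 50% by CREB1 gave 22.8%. The median score of clustered minus isolated sites was -22.5, -4.54 at 10000 bp and -41.8 among the higher-scoring peaks; the cause was not tested. It was lower for clustered sites under all 5 alternatives, and the width was larger under all 5. The RNA columns carry numbers, but same-numbered libraries did not deviate together (correlations -0.05 to 0.23 over pairs of groups); with a replicate block 25 list genes, FOXA1 counted, were called in each line, as without. Leaving out single libraries gave 23 to 25 in abl and 21 to 24 in LNCaP. Of 144 gene values under alternatives, 141 kept direction and call. Without the first LNCaP siControl library, HOXB13 in LNCaP was at 0.054, with the opposite sign and not past the threshold (range over libraries left out -0.13 to 0.054); the cause was not tested. Differences between the lines were not recomputed under these alternatives. Motif, gene-start and nearby-gene results and their alternatives were not run, because an hg19 genome and annotation were not used here.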

Other observations

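The dip in spacing below 5 kb was seen in the CREB1 lists as well. Among FOXA1 sites without CREB1, 1358 steps between consecutive midpoints were over 4 and up to 5 kb long and 2106 were over 5 and up to 6 kb, a ratio of 1.55. The ratio was 1.56 in the whole FOXA1 list. In the abl CREB1 list the counts were 308 and 537 (ratio 1.74), and in the LNCaP CREB1 list 208 and 338 (ratio 1.62 by the same count). All 3 lists name the same peak caller in the submitters' processing notes, and its part in the dip was not tested. Short steps were common in the CREB1 lists too, with 400 and 360 steps between 500 and 1000 bp.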
